A study of Solanum lycopersicum with 6 samples.

Results

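The genes described here are 10 genes of the circadian clock of tomato (Solanum lycopersicum), followed in leaves through heat stress (HS). They were chosen by identifier from the table of gene counts: LHY (Solyc10g005080), a PRR9-like gene (Solyc10g005030), a PRR7-like gene (Solyc04g049670), a PRR5-like gene (Solyc03g081240), 2 genes like TOC1, also called PRR1 (Solyc06g069690 and Solyc03g115770), 2 GIGANTEA genes (Solyc04g071990 and Solyc12g056650), LUX (Solyc06g005680) and EID1 (Solyc09g075080). All 10 were present among the 35603 genes of the table, and all 10 were among the 19123 genes that reached at least 50 counts in at least 2 libraries and were tested. The PRR5-like gene and LUX held fewer than 50 counts in both 0 h libraries, so they passed this filter through the heated libraries. The count table itself carries identifiers only, so these names come from the choice of members and were not checked against sequence.

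RNA was sequenced from the fourth leaf of 4-week-old wild-type (WT) plants of the cultivar M82, raised at 24 °C with 16 h of light per day. Plants spent 1 h or 6 h at 45 °C in a climatic chamber and were compared with plants at 0 h. There were 2 biological replicates per time, 6 libraries in all. According to the study's reporting notes, a replicate was a random pool of plants, and p-values therefore measure the spread between such pools. No unheated plants taken at 1 h or 6 h were analysed here, and the hour of the day at which leaves were taken is not given in the sources used here. What heat did to a clock gene and what the hour of the day did cannot be told apart in this design.

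The plant clock, known best from Arabidopsis, is a loop of transcription factors that repress each other in turn over the day. LHY is made around dawn, the pseudo-response regulators PRR9, PRR7, PRR5 and TOC1 follow one after another from morning to evening and repress LHY, and LUX acts in the evening complex that represses morning genes at night. GIGANTEA, made towards the end of the day, holds and stabilises a light-sensing F-box protein that marks TOC1 and PRR5 for degradation. In leaves this clock times photosynthesis, growth and responses to stress, and it also changes how strongly plants react to heat at different hours.

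All 10 genes had counts in every library. Totals ranged between 25147160 and 30738632 counts per library, at which 3 counts, the upper limit behind a count of 0, came to between 0.0872 and 0.126 CPM. CPM is the count as a share of its library in parts of 1e6, and library sizes were scaled with TMM, which corrects a library for its composition. The gene Solyc09g074475.1, which the study names as heat-responsive, was set beside the labels. The study showed its heat response with its own RNA-seq, so the gene is no independent check of them. It had 0.584 and 0.401 CPM at 0 h, 74.8 and 91.1 CPM at 1 h, and 1.56 and 3.55 CPM at 6 h. It was highest in both libraries labelled 1 h. The actin gene Solyc03g078400.3, a qPCR reference of the study, had 818 and 720 CPM before heat, 709 and 718 CPM after 1 h and 549 and 506 CPM after 6 h. Actin was thus lower at 6 h than at 0 h, with a log2 fold change of -0.54 (adjusted p = 0.0116 in edgeR), and its part in the members' changes was not tested. The leaf label was not checked against leaf markers, since the identifiers could not be paired with gene names. These are bulk samples, in which fewer cells that express a gene and less RNA per cell cannot be told apart.

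At 1 h of HS all 10 clock genes differed from 0 h, with 6 higher and 4 lower. The genes that rose were both TOC1-like genes, both GIGANTEA genes, the PRR5-like gene and LUX, and those that fell were LHY, the PRR9-like gene, the PRR7-like gene and EID1. The call was an adjusted p-value (Benjamini-Hochberg, over all 19123 genes) below 0.05 in edgeR's quasi-likelihood test, and 63.5% of all tested genes were called at 1 h, 32.2% higher and 31.3% lower. Being called was therefore common at 1 h. In size, the median absolute log2 fold change of the 10 members was 1.87, beside 0.62 over all tested genes. A log2 fold change of 1 or more in size was called in 9 members, while 30.9% of all tested genes were called with a change of that size.

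At 6 h, 7 of the 10 differed from 0 h, 4 higher and 3 lower, where 58.8% of all tested genes were called, 30.9% higher and 28.0% lower. Both GIGANTEA genes, the PRR5-like gene and LUX were higher, and LHY, the PRR9-like gene and EID1 were lower. The PRR7-like gene and both TOC1-like genes did not pass the test. The median absolute log2 fold change was 1.72 in the members and 0.52 in all genes, and 5 members had a called log2 fold change of 2 or more in size, beside 6.40% of all tested genes called at that size.

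Set directly against 1 h, the 6 h level was called in all 10 members, 6 higher and 4 lower, where 66.3% of all tested genes were called, 34.7% higher and 31.7% lower. The PRR7-like, PRR9-like and PRR5-like genes, both GIGANTEA genes and LUX were higher at 6 h than at 1 h. LHY, both TOC1-like genes and EID1 were lower. A single test over the 3 times called all 10 members, and 83.9% of all tested genes. The members and the lists were chosen with results of these data known, so no p-value is given for the group as a whole.

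**Figure D1:**
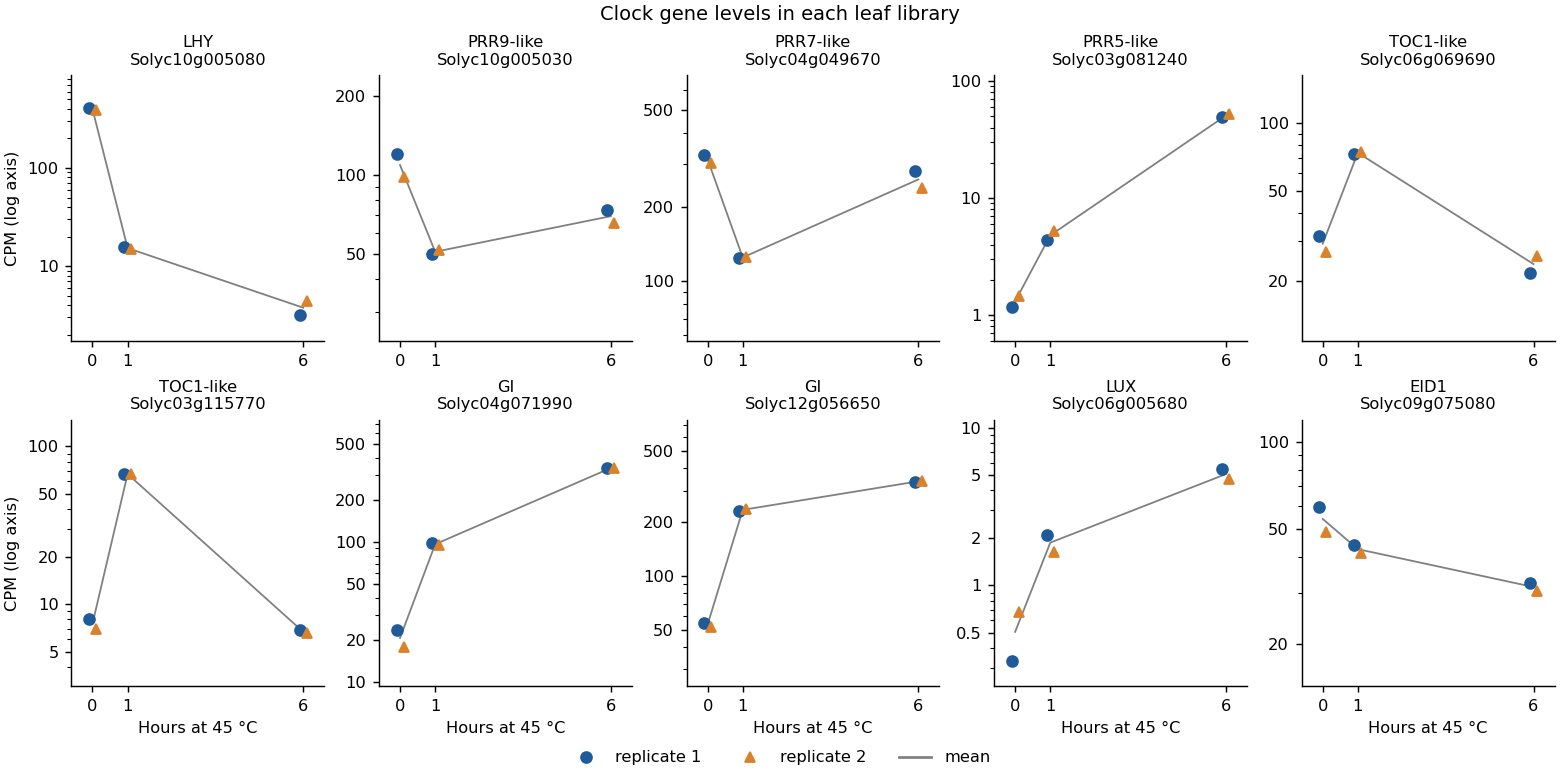
Level of each clock gene in every library, in CPM on a log axis that differs between panels, against hours at 45 °C drawn to scale. Circles are replicate 1, triangles are replicate 2 and lines join the means of the 2 replicates, and nothing was measured between 1 h and 6 h. LHY falls to 3.14 and 4.39 CPM at 6 h, both TOC1-like genes are highest at 1 h, and PRR5-like, both GIGANTEA genes and LUX are highest at 6 h.

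LHY, a MYB transcription factor and the dawn component of the loop, fell the most. It lies at chr10:59032-79163 (plus strand, M82 gene models version 1.1.0), a span of 20132 bp that includes introns. It had 410 and 386 CPM at 0 h, 15.6 and 14.9 CPM at 1 h, and 3.14 and 4.39 CPM at 6 h. The libraries of the 3 times did not overlap, and the lowest values rest on 101 and 151 counts. Here and below, absence of overlap carries little weight by itself, since it also held in comparisons that did not pass the test. How often it held over all tested genes was not counted. Relative to 0 h, LHY had a log2 fold change of -4.71 at 1 h (standard error 0.164, adjusted p = 3.3e-07 in edgeR), which is 26.1-fold lower. After 6 h it was -6.72 (standard error 0.184, adjusted p = 5.4e-07 in edgeR), or 105-fold lower. The further fall of 6 h against 1 h was also called, at -2.01 (standard error 0.166, adjusted p = 1.9e-05 in edgeR).

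Among all 19123 tested genes, the log2 fold change of LHY was number 39 from the lowest at 1 h and number 12 from the lowest at 6 h. The mean level was 3.83% of that at 0 h after 1 h, and 0.946% after 6 h. Averaged over each interval of heating, the difference in LHY equals a 2-fold fall every 12.8 min in the first hour. Between 1 h and 6 h it equals a 2-fold fall every 149 min. These averages compare libraries whose hour of sampling is not given, and they are not measured rates of decay. The 6 h replicates differed by 0.43 on the log2 scale, the widest replicate gap of any member at that time. The log2 fold change of LHY at 6 h against 0 h was -6.50 without replicate 1 of 6 h and -6.98 without replicate 2.

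The PRR9-like gene and the PRR7-like gene, whose Arabidopsis counterparts repress LHY from the morning onwards, fell at 1 h and were higher again at 6 h. The PRR9-like gene lies at chr10:40618-47177 (plus strand, 6560 bp), only 11854 bp before LHY on the same strand, with 3 other genes between. It had 120 and 98.2 CPM at 0 h, 49.8 and 51.8 CPM at 1 h, and 73.5 and 65.6 CPM at 6 h. Both 6 h libraries lay between those of 1 h and those of 0 h, without overlap. Relative to 0 h, the PRR9-like gene changed by -1.10 in log2 at 1 h (standard error 0.128, adjusted p = 0.000117 in edgeR), and by -0.65 at 6 h (standard error 0.126, adjusted p = 0.00256 in edgeR).

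For 6 h against 1 h the PRR9-like gene had a log2 fold change of 0.45 (standard error 0.127, adjusted p = 0.0125 in edgeR). This call was lost without replicate 1 of 1 h (edgeR adjusted p = 0.0892), without replicate 2 of 1 h (0.06) and without replicate 1 of 6 h (0.0659), with log2 fold changes between 0.37 and 0.48. With libraries scaled by their totals only, the log2 fold change of 6 h against 1 h was 0.88 and that of 6 h against 0 h was -0.38, both called. At 6 h the PRR9-like gene stood at 63.7% of its own 0 h mean, and LHY at 0.946% of its own. Both genes were called lower than at 0 h at 1 h and at 6 h. A link with their closeness on the chromosome was not tested.

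The PRR7-like gene lies at chr4:43447173-43453882 (minus strand, 6710 bp). It had 325 and 302 CPM at 0 h, 124 and 124 CPM at 1 h, and 280 and 239 CPM at 6 h. Its 2 libraries at 1 h were almost equal and lay far below all others. Its change at 1 h against 0 h was -1.33 in log2 (standard error 0.129, adjusted p = 4.2e-05 in edgeR). The change back up, 6 h against 1 h, was 1.06 (standard error 0.128, adjusted p = 0.00014 in edgeR).

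The level of the PRR7-like gene at 6 h did not pass the test against 0 h, with a log2 fold change of -0.27 (standard error 0.126, 95% interval -0.56 to 0.02, adjusted p = 0.0929 in edgeR). This outcome depended on the setting. The difference was called without replicate 2 of 0 h (-0.37, edgeR adjusted p = 0.0496), without replicate 1 of 6 h (-0.39, edgeR adjusted p = 0.0265) and with DESeq2, the tool of the study (-0.32, DESeq2 adjusted p = 0.0277).

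The PRR5-like gene, whose Arabidopsis counterpart follows PRR7 around the middle of the day, showed the largest rise of the members at 6 h. It lies at chr3:48167537-48172655 (minus strand, 5119 bp). It was nearly silent at 0 h, with 1.17 and 1.44 CPM, reached 4.35 and 5.24 CPM at 1 h, and had 48.9 and 52.6 CPM at 6 h. Each time lay clear of the one before it, and the 0 h values rest on 28 and 36 counts. Relative to 0 h, it was higher by 1.87 in log2 at 1 h (standard error 0.191, adjusted p = 5.8e-05 in edgeR), and by 5.27 at 6 h (standard error 0.177, adjusted p = 1.5e-06 in edgeR).

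A 38.7-fold rise of the PRR5-like gene at 6 h put it at number 38 from the highest of all tested genes. Most of this rise came after the first hour. The change of 6 h against 1 h was 3.41 on the log2 scale (standard error 0.150, adjusted p = 1e-06 in edgeR), number 105 from the highest of all tested genes in that comparison.

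Both TOC1-like genes peaked at 1 h. TOC1 is the pseudo-response regulator of the evening in Arabidopsis and represses LHY. Solyc06g069690, at chr6:45982685-45988644 (minus strand, 5960 bp), had 31.8 and 26.8 CPM at 0 h, 73.4 and 74.7 CPM at 1 h, and 21.7 and 25.9 CPM at 6 h. The 1 h libraries stood above all others, and the 6 h libraries lay just below those of 0 h. It rose by 1.34 in log2 at 1 h, relative to 0 h (standard error 0.130, adjusted p = 4.3e-05 in edgeR), and its 6 h level set against 1 h gave -1.64 (standard error 0.130, adjusted p = 1.5e-05 in edgeR).

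At 6 h against 0 h, Solyc06g069690 had a log2 fold change of -0.30 (standard error 0.130, 95% interval -0.60 to -0.00, adjusted p = 0.0769 in edgeR), which did not pass the test. The difference was called without replicate 2 of 0 h (-0.46) and without replicate 2 of 6 h (-0.44). With libraries scaled by their totals only, it was -0.02 (edgeR adjusted p = 0.906).

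Solyc03g115770, the other TOC1-like gene, lies at chr3:61416679-61422913 (minus strand, 6235 bp) and showed the larger rise at 1 h. It had 8.09 and 6.90 CPM at 0 h, 66.9 and 66.8 CPM at 1 h, and 6.81 and 6.51 CPM at 6 h. The 2 values at 1 h were almost identical, and the 6 h values lay just under the lower 0 h value. It rose 8.92-fold at 1 h, a log2 fold change of 3.16 (standard error 0.123, adjusted p = 4.7e-07 in edgeR). At 6 h it was lower than at 1 h, with a log2 fold change of -3.33 (standard error 0.122, adjusted p = 5.3e-07 in edgeR).

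Against 0 h, the log2 fold change of Solyc03g115770 at 6 h was -0.17 (standard error 0.127, 95% interval -0.46 to 0.12, adjusted p = 0.276 in edgeR). Its sign turned to 0.10 (edgeR adjusted p = 0.542) when libraries were scaled by their totals only.

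The 2 TOC1-like genes were not present in constant proportion. Of the counts of both, Solyc03g115770 held 20.3% and 20.5% in the 0 h libraries, 47.7% and 47.2% in those of 1 h, and 23.9% and 20.1% in those of 6 h. Its share was highest in both 1 h libraries. Per kilobase of gene span, the log2 ratio of Solyc03g115770 to Solyc06g069690 was higher by 1.82 at 1 h than at 0 h (mean -0.21 at 1 h and -2.03 at 0 h). A ratio taken inside a library does not depend on how libraries are scaled. An exact two-sided permutation test of this ratio gave p = 0.333, the smallest value that 2 libraries against 2 allow.

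**Figure D2:**
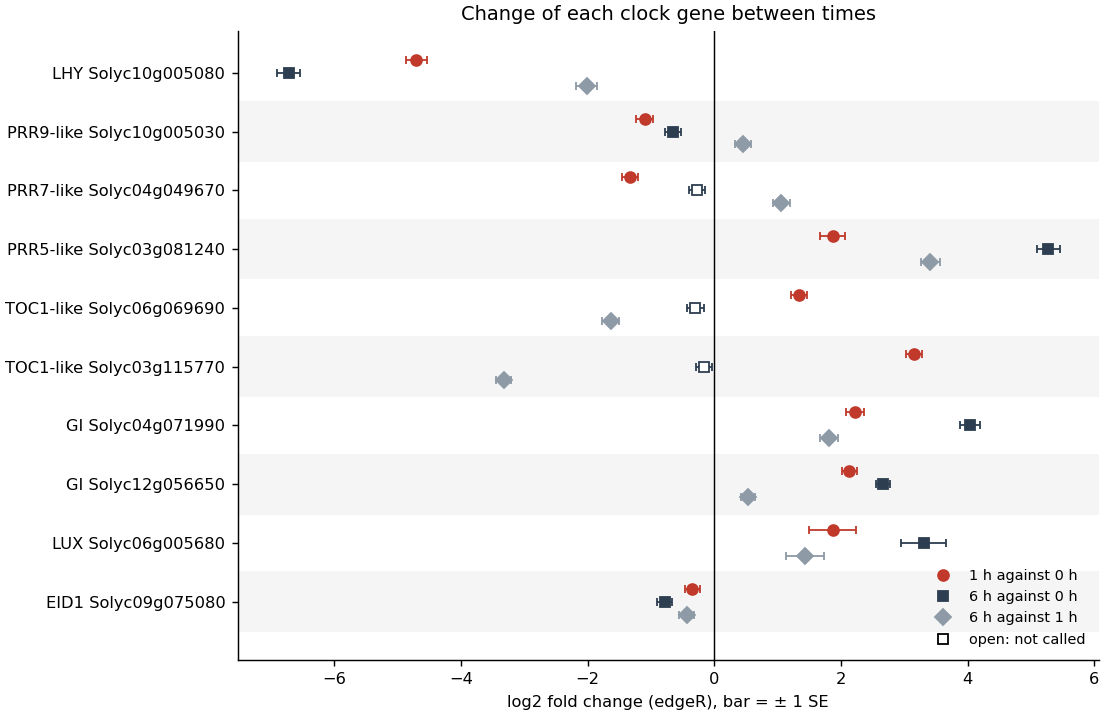
Log2 fold change of each clock gene from edgeR, with bars of 1 standard error either side, for 1 h against 0 h (circles), 6 h against 0 h (squares) and 6 h against 1 h (diamonds); open symbols did not pass the test. Both TOC1-like genes lie above 0 at 1 h (1.34 and 3.16) and close to 0 at 6 h against 0 h (-0.30 and -0.17), whereas LHY lies at -4.71 and -6.72.

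The 2 GIGANTEA genes were higher at 1 h and higher still at 6 h. GIGANTEA is a large plant-specific protein that links the clock to flowering time. Solyc04g071990, at chr4:58637559-58679516 (minus strand, 41958 bp), had 23.4 and 17.9 CPM at 0 h, 98.3 and 94.8 CPM at 1 h, and 340 and 337 CPM at 6 h. Replicates lay close together at 1 h and 6 h, and no times overlapped. Relative to 0 h, it rose by 2.22 in log2 at 1 h (standard error 0.146, adjusted p = 5.4e-06 in edgeR), and by 4.03 at 6 h (standard error 0.155, adjusted p = 2.2e-06 in edgeR). Its 6 h level was 16.4-fold higher. Between the heated times, 6 h against 1 h, its log2 fold change was 1.81 (standard error 0.140, adjusted p = 1.3e-05 in edgeR).

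Solyc12g056650, at chr12:65847944-65862009 (minus strand, 14066 bp), had 54.7 and 52.1 CPM at 0 h, 231 and 237 CPM at 1 h, and 335 and 341 CPM at 6 h. The libraries of the 3 times did not overlap, and those of 6 h were the highest. Relative to 0 h, this copy rose by 2.13 in log2 at 1 h (standard error 0.116, adjusted p = 2.2e-06 in edgeR), and by 2.66 at 6 h (standard error 0.118, adjusted p = 2.7e-06 in edgeR). Its 6 h level set against 1 h gave 0.53 (standard error 0.110, adjusted p = 0.00278 in edgeR), and 0.96 when libraries were scaled by their totals only.

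Counted together, the GIGANTEA genes had 78.1 and 70.1 CPM at 0 h, 329 and 332 CPM at 1 h, and 675 and 678 CPM at 6 h. The counts of Solyc04g071990, divided by those of Solyc12g056650, came to 0.428 and 0.344 in the 0 h libraries, 0.425 and 0.400 in those of 1 h, and 1.01 and 0.988 in those of 6 h. The copies thus kept much the same proportion at 1 h as at 0 h and were counted about equally at 6 h. Per kilobase, the log2 ratio of Solyc04g071990 to Solyc12g056650 was higher by 1.38 at 6 h than at 0 h (mean -1.58 at 6 h and -2.96 at 0 h). The exact two-sided permutation test gave p = 0.333, again the smallest possible. Reads that match both copies of a gene pair equally well receive a low mapping quality, and a mapping quality of at least 30 was required. How many reads either pair lost in this way was not tested.

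LUX, a MYB-type DNA-binding protein that anchors the evening complex in Arabidopsis, had the fewest counts of the members at 0 h and at 1 h. It lies at chr6:753068-754154 (plus strand, 1087 bp). Its counts were 8 and 17 in the 0 h libraries, 57 and 39 in those of 1 h, and 175 and 162 in those of 6 h. These correspond to 0.334 and 0.682 CPM at 0 h, 2.10 and 1.63 CPM at 1 h, and 5.44 and 4.71 CPM at 6 h. No times overlapped, though the 0 h replicates differed widely.

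Relative to 0 h, LUX rose by 1.87 in log2 at 1 h (standard error 0.377, adjusted p = 0.00254 in edgeR), and by 3.30 at 6 h (standard error 0.354, adjusted p = 0.000123 in edgeR). Its standard errors were the largest of the members. Its 6 h level set against 1 h gave 1.44 (standard error 0.298, adjusted p = 0.00275 in edgeR). The size of the rise rests on the low 0 h counts: at 1 h it was 1.45 without replicate 1 of 0 h and 2.45 without replicate 2 of 0 h, and it stayed called in both cases.

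EID1 had the smallest change of the members at 1 h relative to 0 h. It encodes an F-box protein of phytochrome A signalling in Arabidopsis, and in tomato variation in this gene alters the pace of the clock. It lies at chr9:63281704-63284485 (minus strand, 2782 bp). It had 59.4 and 48.7 CPM at 0 h, 43.8 and 41.1 CPM at 1 h, and 32.3 and 30.5 CPM at 6 h. The mean level was lower at each later time. EID1 fell at 6 h, relative to 0 h, with a log2 fold change of -0.78 (standard error 0.121, adjusted p = 0.000817 in edgeR), and -0.51 when libraries were scaled by their totals only.

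The step of EID1 at 1 h, with a log2 fold change of -0.35 (standard error 0.121, adjusted p = 0.0327 in edgeR), was less secure. It was lost with DESeq2 (DESeq2 adjusted p = 0.0526), without replicate 1 of 0 h (-0.20, edgeR adjusted p = 0.167), and without replicate 1 (edgeR adjusted p = 0.0938) or replicate 2 of 1 h (edgeR adjusted p = 0.176). At 6 h against 1 h EID1 had a log2 fold change of -0.44 (standard error 0.121, adjusted p = 0.0121 in edgeR). That call was lost without replicate 1 of 1 h (edgeR adjusted p = 0.0871), without replicate 2 of 6 h (edgeR adjusted p = 0.065), under upper-quartile scaling (-0.21, edgeR adjusted p = 0.154) and when libraries were scaled by their totals only (-0.01, edgeR adjusted p = 0.933).

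**Figure D3:**
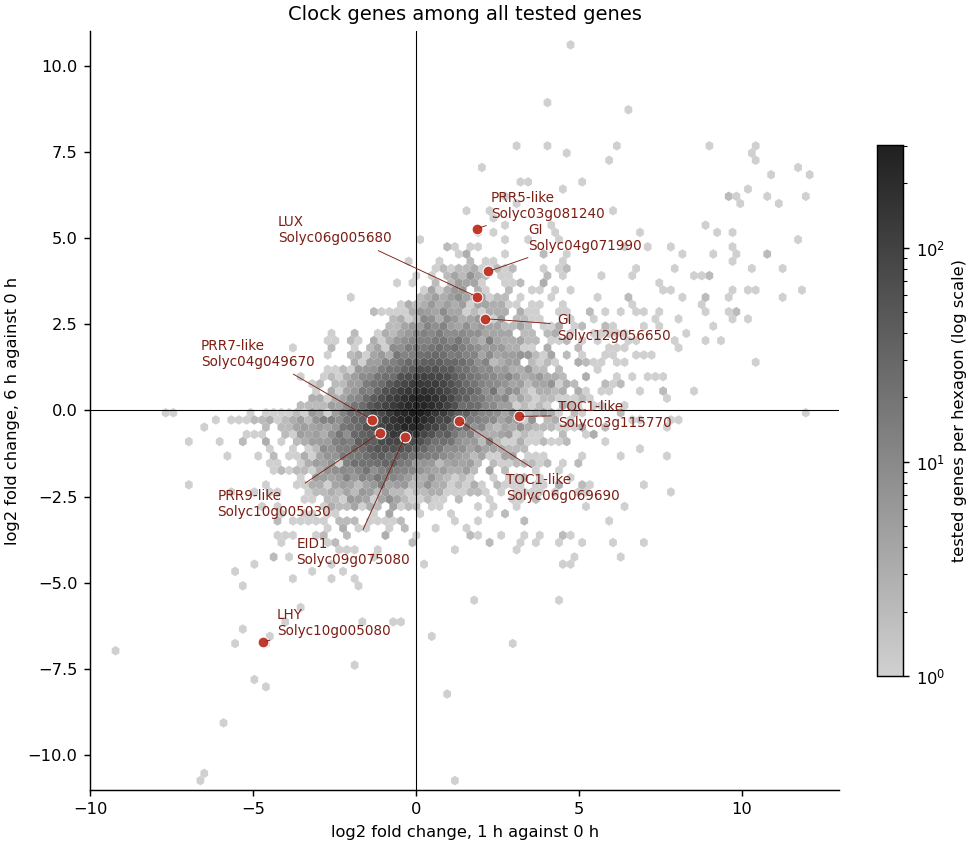
Log2 fold change at 6 h against 0 h plotted over that at 1 h against 0 h, with all 19123 tested genes as grey hexagons shaded by the number of genes on a log scale and the 10 clock genes as red points. Both axes share the same 0 h libraries. LHY (-4.71, -6.72) lies at the lower left, and PRR5-like (1.87, 5.27) lies at the top of the clock genes.

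The order of the clock genes by level was then compared between the times, in CPM per kilobase of gene span. Since spans include introns, these levels set genes side by side only roughly. Per kilobase, the PRR7-like gene stood highest at all 3 times, with mean levels of 46.7, 18.5 and 38.7 CPM per kb at 0, 1 and 6 h. In mean CPM, without the span, it was not highest at any time. LHY stood above it at 0 h (398 against 313) and Solyc12g056650 at 1 h (234 against 124). Both GIGANTEA genes did so at 6 h (338 each against 259). Per kilobase at 0 h, the PRR7-like gene was followed by LHY (19.8), EID1 (19.4) and the PRR9-like gene (16.6), and neighbours in that run overlapped between replicates. Solyc06g069690 (4.91), Solyc12g056650 (3.80) and Solyc03g115770 (1.20) came next, each clear of its neighbour. At the low end, Solyc04g071990 (0.493) overlapped with LUX (0.467), and the PRR5-like gene was last (0.255).

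At 1 h no neighbours overlapped. Behind the PRR7-like gene stood Solyc12g056650 (16.6 CPM per kb), EID1 (15.3), Solyc06g069690 (12.4), Solyc03g115770 (10.7) and the PRR9-like gene (7.75). Solyc04g071990, LUX (1.72) and the PRR5-like gene (0.936) followed. LHY, next to the top at 0 h, was last at 1 h, at 0.758 CPM per kb. In mean CPM, without the span, LHY (15.3) stood above the PRR5-like gene (4.79) and LUX (1.87) at 1 h.

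By 6 h the order had changed again. Solyc12g056650 (24.0 CPM per kb) again stood behind the PRR7-like gene, and EID1 (11.3), the PRR9-like gene (10.6) and the PRR5-like gene (9.92) formed a run in which neighbours overlapped. Solyc04g071990 had 8.06 CPM per kb, and LUX (4.67) overlapped with Solyc06g069690 (3.99). Solyc03g115770 (1.07) and LHY (0.187) came last.

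**Figure D4:**
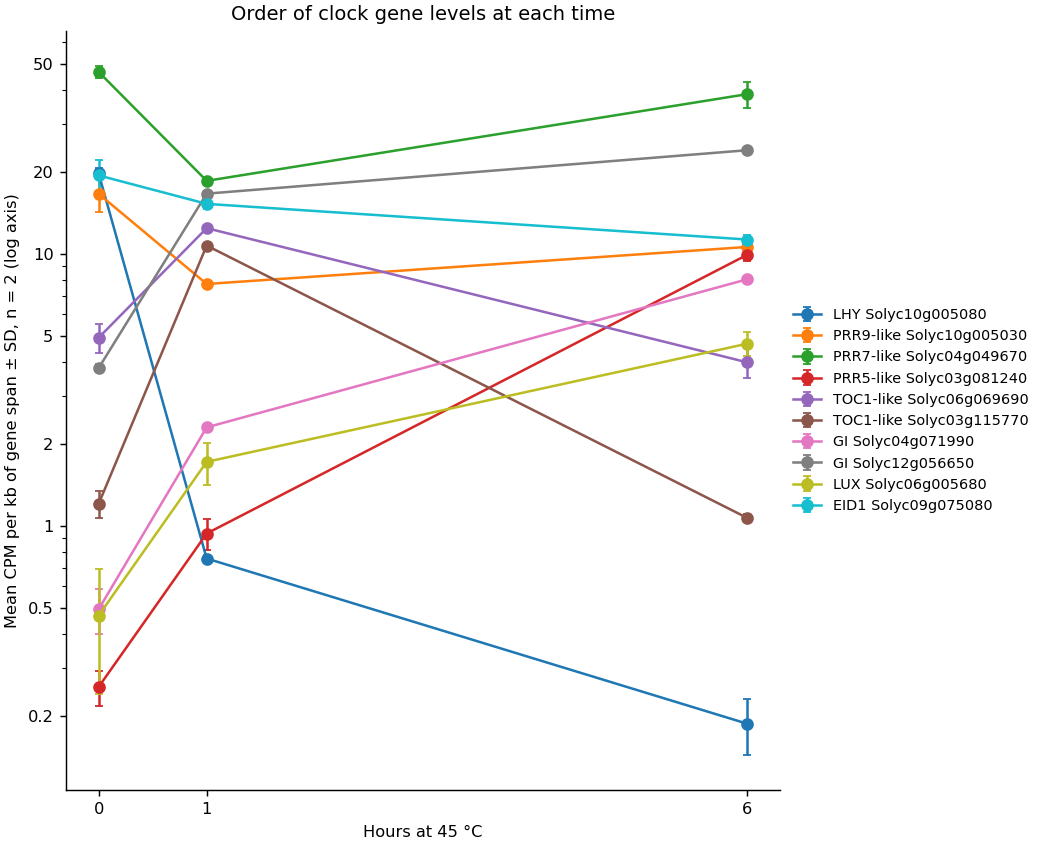
Mean level of each clock gene in CPM per kb of gene span, on a log axis, against hours at 45 °C, with bars of 1 SD over 2 replicates. Per kb, LHY is the lowest of the 10 genes at 1 h and 6 h (0.758 and 0.187 CPM per kb, against 19.8 at 0 h). Per kb, the PRR7-like gene is highest throughout, though not in CPM without the span.

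Ratios between clock genes inside each library gave the same comparison free of scaling between libraries. The log2 ratio of GIGANTEA Solyc12g056650 to LHY, per kilobase, lay at -2.39 and -2.37 in the 0 h libraries, 4.41 and 4.51 in those of 1 h, and 7.25 and 6.80 in those of 6 h. LHY was thus the higher of these genes in both 0 h libraries and the lower in all heated libraries. For Solyc04g071990 over LHY, the log2 ratio came to -5.19 and -5.49 in the 0 h libraries, 1.60 and 1.61 in those of 1 h, and 5.70 and 5.20 in those of 6 h. The difference of 6 h against 0 h in this log2 ratio was 10.79, the largest of the 7 ratios computed.

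The TOC1-like genes crossed LHY as well. Solyc06g069690 over LHY had log2 ratios of -1.93 and -2.10 in the 0 h libraries, 3.99 and 4.08 in those of 1 h, and 4.54 and 4.32 in those of 6 h. Solyc03g115770 over LHY had -3.97 and -4.12 in the 0 h libraries, 3.79 and 3.85 in those of 1 h, and 2.81 and 2.26 in those of 6 h. Both stayed above LHY at 6 h, when their own levels were near those of 0 h.

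PRR9 comes before PRR5 in the daily order of Arabidopsis. The log2 ratio of the PRR5-like gene to the PRR9-like gene came to -6.32 and -5.73 in the 0 h libraries, -3.16 and -2.95 in those of 1 h, and -0.23 and 0.04 in those of 6 h. The PRR9-like gene was far above the PRR5-like gene at 0 h, and at 6 h the genes were about level. With 2 libraries per time, no exact permutation test of these ratios can fall below p = 0.333, the value obtained in 19 of the 21 comparisons.

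**Figure D5:**
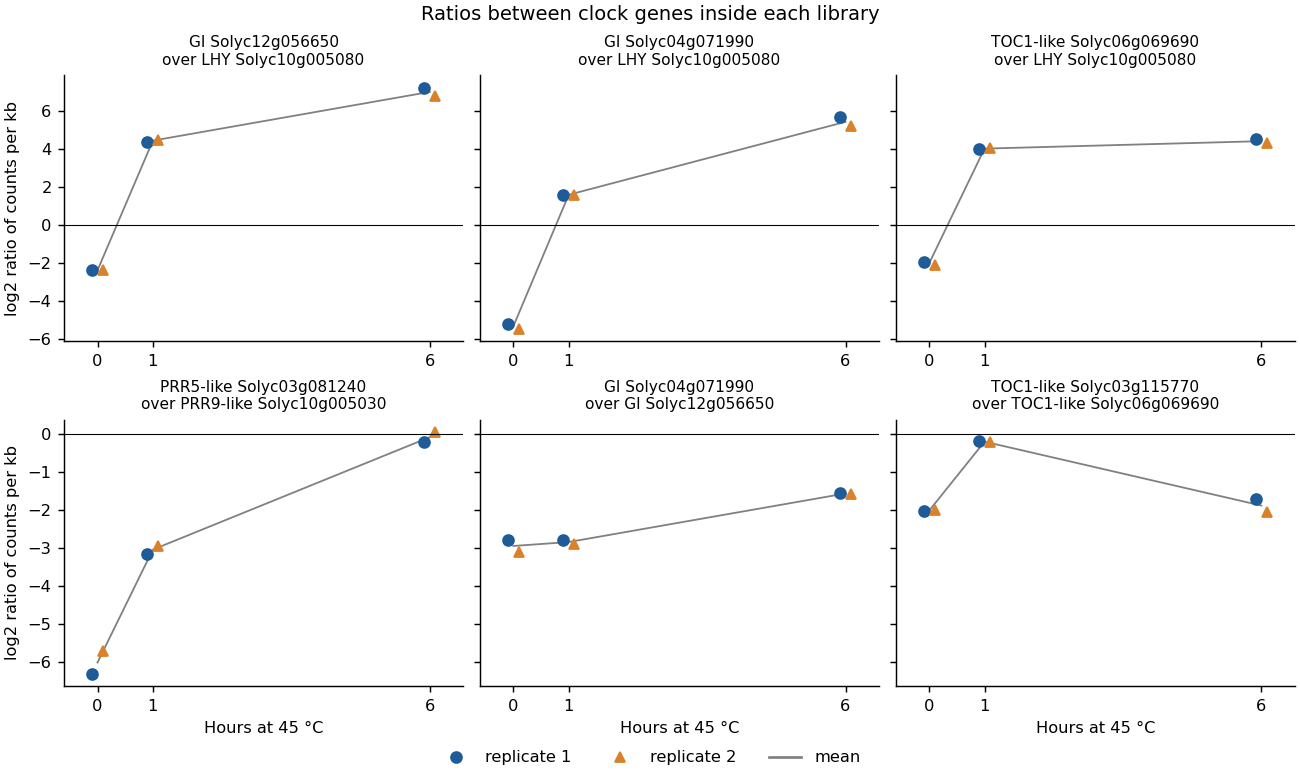
Log2 ratios of counts per kb between pairs of clock genes within each library, against hours at 45 °C. Circles are replicate 1, triangles are replicate 2, lines join the means, and a value above 0 means that the first-named gene is higher. Solyc12g056650 over LHY is -2.39 and -2.37 at 0 h and above 4 in all heated libraries.

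Members could also be grouped by the shape of their profile over the 6 libraries, described by the Pearson correlation of log2(CPM + 0.5). The points are 3 times with 2 replicates each, so any genes with a like order of the times correlate strongly, and no test is given. The TOC1-like pair had r = 0.98, the GIGANTEA pair 0.96, Solyc04g071990 and LUX 0.97, the PRR5-like gene and LUX 0.96, the PRR9-like and PRR7-like genes 0.90, and LHY and EID1 0.92. LHY and Solyc12g056650 ran opposite, with r = -0.99.

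Many other genes had such profiles. A correlation of at least 0.95 with LHY was found in 525 tested genes (2.75%), and one with Solyc04g071990 in 762 (3.98%). The genes most like LHY in shape were Solyc04g081130.1 (r = 0.999 over the 6 libraries) and Solyc11g007190.2 (r = 0.998). Solyc04g081130.1 had 4.51 and 3.93 CPM at 0 h, 0.737 and 0.796 CPM at 1 h, and 0.218 and 0.262 CPM at 6 h, the same downward order as LHY at a far lower level. Most like Solyc04g071990 in shape were Solyc10g076760.3 and Solyc09g055470.1 (each r = 0.999). Solyc10g076760.3 had 3.84 and 3.25 CPM at 0 h, 13.4 and 13.0 CPM at 1 h, and 32.4 and 30.6 CPM at 6 h, a rise at each time as in Solyc04g071990. Correlation does not measure the size of a change, and the changes were smaller in these genes. At 6 h against 0 h the log2 fold change was -4.11 in Solyc04g081130.1 and -2.69 in Solyc11g007190.2, beside -6.72 in LHY. It was 3.15 in Solyc10g076760.3 and 1.22 in Solyc09g055470.1, beside 4.03 in Solyc04g071990. The annotation of the genes found by correlation was not analysed here.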

How the data were processed

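RNA-seq of leaves covered 3 times of heat stress (0, 1 and 6 h), with 2 libraries each, grouped by their labels. Stranded libraries were made from 2 µg of total RNA and read as single ends of 75 bp. The deposited values are raw counts per gene, with no normalization, and replicates were not pooled. Counting was done by the authors in featureCounts 2.0.0, per the file headers, on version 1.1.0 of the M82 gene models, reverse-stranded, with a mapping quality of at least 30, with multi-mapped reads allowed and with a read counted for every gene it overlapped. The submitters' processing notes name Trimmomatic 0.38, Bowtie2 2.3.5 and SAMtools 1.9, whereas the methods of the study name STAR for alignment, and which of these gave the counts was not settled. For all 35603 genes the length equals the span, so reads in introns were counted. No member overlaps another gene on either strand.

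The filter of the study was kept, a minimum of 50 counts in 2 or more libraries. Negative binomial models with time as a factor were fitted over all 6 libraries (edgeR 4.0.16, R 4.3.3, TMM scaling), and contrasts were tested two-sided by the quasi-likelihood F test with Benjamini-Hochberg adjustment over 19123 genes. Standard errors were derived from the fold change and F, as the absolute log2 fold change over the root of F. The fit had 3 residual and 5.42 prior degrees of freedom, and the common biological coefficient of variation was 12.3%. The procedure was tested on simulated data in which a small share of the genes changed, at 6 h only. Changes at 1 h, and changes as widespread as in these data, were not simulated. Alternatives were DESeq2 1.42.0, other scalings and filters, a stricter threshold, a minimum fold change, leaving out each library in turn, a block for the replicate number, and fits restricted to the 4 libraries of a contrast.

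The members, lists and tests were chosen with earlier results of these data known. The text names all 10 members and, of the 3 genes most correlated with LHY and the 3 most correlated with Solyc04g071990, the first 2 each. The RefSeq table matched 0 of the 10 members, so promoter motifs, protein sequences, other clock-associated genes and tissue markers were not analysed here. Limits from counts cover counting error only.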

Additional observations from a re-analysis of the deposited data

Results flagged for a closer look

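The change against 0 h differed between 1 h and 6 h of heat stress in all 10 clock genes, by the direct test of 6 h against 1 h in edgeR, a comparison in which 66.3% of all tested genes were called. The log2 change at 6 h exceeded that at 1 h by 3.41 in the PRR5-like gene, 1.81 in GIGANTEA Solyc04g071990, 1.44 in LUX, 1.06 in the PRR7-like gene, 0.53 in GIGANTEA Solyc12g056650 and 0.45 in the PRR9-like gene. In the other members the difference of 6 h minus 1 h was -3.33 in TOC1-like Solyc03g115770, -2.01 in LHY, -1.64 in TOC1-like Solyc06g069690 and -0.44 in EID1. These 10 genes include some in which the later change went further in the same direction (LHY, PRR5-like, both GIGANTEA genes, LUX and EID1) and some in which the level lay nearer to that of 0 h at 6 h than at 1 h (both TOC1-like genes, PRR9-like and PRR7-like). With 2 libraries per time, no test for single outlying libraries was made.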

How the results depend on the processing

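Of the alternatives to the log2 fold changes of the members, 403 left the direction and the call in place, 11 lost a call, 5 gained one and 1 reversed the sign. The reversal was that of Solyc03g115770 at 6 h against 0 h, 0.10 with library totals as the only scaling, beside -0.17. The lost calls were those of EID1, for 1 h against 0 h and 6 h over 1 h, and of the PRR9-like gene at 6 h against 1 h. The gained calls were those of Solyc06g069690 and the PRR7-like gene at 6 h against 0 h. The cause of these moves was not tested. The number of members called ranged between 9 and 10 (1 h against 0 h), between 5 and 9 (6 h over 0 h) and between 7 and 10 (6 h over 1 h). Over all tested genes the calls ranged between 5901 and 13357, 4539 and 12368, and 6113 and 14058. The lowest came with the minimum fold change and the highest with no filter on low counts. Leaving out 1 library gave 9 to 10, 7 to 9 and 8 to 10 members. Over the 3 times all 10 members were called under all alternatives run, beside 83.9% of all tested genes in the main setting. A minimum absolute log2 fold change of 1 reduced the calls over all tested genes to 5901 (1 h against 0 h), 4539 (6 h over 0 h) and 6113 (6 h over 1 h), beside 12144, 11250 and 12688 without it, since it asks for more. With library totals as the only scaling, the median over all tested genes lay, in log2, at -0.15, 0.30 and 0.48 in these comparisons, and 41.4%, 71.0% and 74.3% of calls were higher, beside 50.7%, 52.4% and 52.3% with TMM. With upper-quartile scaling the medians were -0.15, 0.11 and 0.29, and 42.1%, 58.9% and 65.1% of calls were higher. The replicate number as a block left 10, 7 and 10 members called. The labels do not say that a number was shared between times, and same-numbered libraries deviated together only weakly (r = -0.10, -0.02 and 0.20), so the numbers were not treated as pairs. LUX had 8 and 17 counts at 0 h and the largest standard errors of the members in all 3 comparisons.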
